A study of Homo sapiens with 28 samples.

Results

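Conversion of 4-thiouridine by periodate oxidation with an amine and by alkylation was compared on RNA from wild-type HEK293T, an established cell line of human embryonic kidney origin. The comparison took the libraries titled TL, made with sodium periodate and trifluoroethylamine at pH 5.2 (NaIO4 and TFEA, called TimeLapse in the authors' rate table), and those titled SLAM, made by alkylation with iodoacetamide. Periodate and TFEA libraries at pH 7.4 were not used here. These were 12 of the 28 samples of the series, chosen by their titles and not by any measured value. Labelled cells had received 100 µM 4-thiouridine (s4U) for 2 h, and unlabelled cells had received none. Each chemistry was applied under 2 ways of handling the RNA, named drop-out conditions (DO) and improved handling (IH), whose differences the labels do not describe further. Each chemistry and handling had 2 labelled libraries and 1 unlabelled library, giving 8 labelled and 4 unlabelled libraries. Nothing in the labels says that replicates were separate cultures, so the p-values measure the spread between these libraries, which may be technical.

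Cells build s4U into the RNA they make during the labelling period, so conversion of s4U marks new RNA with T-to-C mismatches against the genome. Iodoacetamide attaches a carboxyamidomethyl group to the sulfur of s4U, and reverse transcriptase then reads the alkylated base as C. Periodate oxidation with an amine instead replaces the sulfur, which turns s4U into a modified cytidine. Introns of mRNA genes are removed soon after transcription, so their reads come mostly from young precursor RNA, whereas exonic reads mix new and old mRNA.

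Depth ran from 2129372 to 5813077 reads in the labelled libraries and up to 9962345 in the unlabelled ones (HISAT-3N alignment, settings D). Counting error alone gave each library's share of converted reads a 95% Wilson interval of at most 0.0658 percentage points to either side. Between 17.5% and 41.5% of reads were assigned to no gene, with a difference of -4.34 percentage points, TL minus SLAM, over all 12 libraries (exact permutation p = 0.0278, and 0.104 adjusted over 5 measures of library composition). In the authors' deposited table of rate constants, 4 of 9 markers of the HEK293 line were listed for TimeLapse and 3 for SLAM (NEFL, NEFM and VIM). No marker of differentiated kidney, blood, liver or fibroblasts was listed for either. That table held only 2209 transcripts for TimeLapse and 1600 for SLAM, so a marker missing from it may still have been expressed. Chromosome 21 and the unplaced contigs that carry ribosomal DNA took 30.6% and 35.6% of reads in the labelled TL libraries under DO and 44.9% and 28.1% in the SLAM ones. Under IH they took 6.90% and 6.49% in TL and 15.3% and 12.3% in SLAM. Over all 12 libraries this share differed by -6.23 percentage points, TL minus SLAM (exact permutation p = 0.0833 within handling and label).

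The converted share, that is the percent of reads carrying any T-to-C mismatch, was similar in size with both chemistries and far above the unlabelled libraries. Under IH it was 47.7% and 44.3% in the TL libraries and 39.96% and 42.8% in the SLAM libraries, so both TL libraries lay above both SLAM libraries. Under DO it was 22.8% and 16.8% in TL and 22.0% and 16.7% in SLAM, and the groups overlapped. The mean was 46.0% ± 2.40 in TL and 41.4% ± 1.99 in SLAM under IH (SD, n = 2 each), and 19.8% ± 4.27 against 19.3% ± 3.71 under DO. The difference averaged over handlings was 2.54 percentage points higher in TL (two-sided exact permutation within handling, p = 0.278). The 4 pairs of libraries within each handling gave differences from -5.15 to 7.70 points. Without chromosome 21 and the ribosomal contigs the difference was 1.501 points, with TL higher in 4 of 8 pairs (exact permutation p = 0.778). With each library's unlabelled share subtracted it was 3.65 points (exact permutation p = 0.167). Such a p-value does not measure the error of the single unlabelled library that both replicates of a group share. With 36 arrangements of the 8 labelled libraries, the smallest p this test can give is 0.0556, so no difference in a library measure could pass 0.05.

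Exonic and intronic reads were then measured apart, without a test of one difference against the other. Exonic reads of genes had converted shares of 26.5% and 24.9% in TL and 24.7% and 25.3% in SLAM under IH, which overlapped. Under DO the exonic shares were 15.1% and 10.4% in TL and 15.9% and 11.1% in SLAM, and they overlapped as well. The exonic difference was -0.0495 percentage points, TL minus SLAM (exact permutation p = 1.0; single pairs of libraries from -5.51 to 3.92). Intronic reads were converted at 76.0% and 71.8% in TL and 64.1% and 69.4% in SLAM under IH, with no overlap. Under DO the intronic shares were 39.1% and 27.6% in TL and 31.2% and 24.97% in SLAM, which overlapped. The intronic difference was 6.20 points higher in TL, with 7 of 8 pairs of libraries in that direction (exact permutation p = 0.167).

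Many reads flagged intronic lay on chromosome 21 and the ribosomal contigs, 52.3% to 68.6% of them in the labelled DO libraries and 7.25% to 16.9% in the labelled IH libraries. Without these contigs, a setting chosen after seeing the data, intronic shares were 78.7% and 74.3% in TL and 69.9% and 74.9% in SLAM under IH. Under DO they were 42.9% and 26.4% in TL and 36.9% and 18.9% in SLAM. The groups then overlapped under both handlings, and the difference was 5.41 points with TL higher in 6 of 8 pairs (exact permutation p = 0.444).

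**Figure D1:**
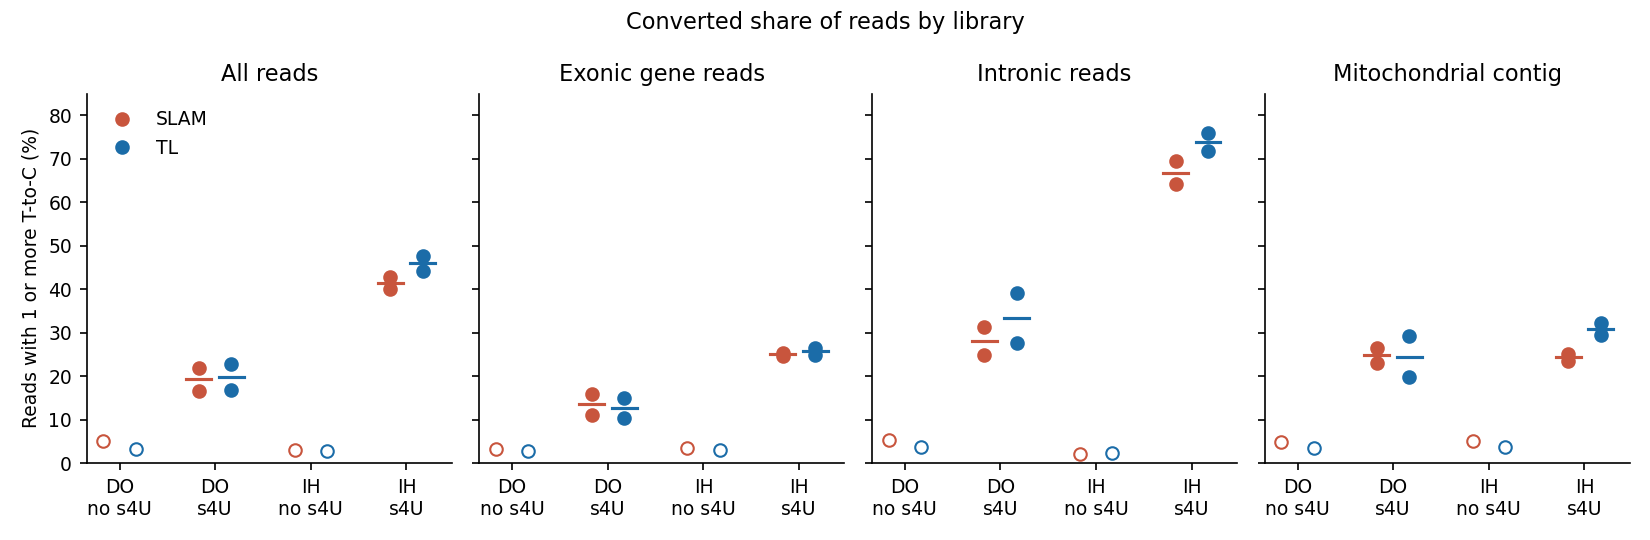
Percent of reads with 1 or more T-to-C mismatches in each library, for all, exonic, intronic and mitochondrial reads. Each point is 1 library, open points are unlabelled, and the line is the mean of 2 labelled libraries. Under IH the intronic TL libraries (76.0% and 71.8%) lie above the SLAM libraries (64.1% and 69.4%), while the exonic values overlap. The intronic reads include those on chromosome 21 and the ribosomal contigs.

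The T-to-C rate, the percent of all T positions in reads that were read as C, did not follow the converted share. It was 3.83% and 3.10% in TL and 3.72% and 3.74% in SLAM under IH, and 1.53% and 1.01% against 1.87% and 0.966% under DO. The difference was -0.21 percentage points, TL minus SLAM (exact permutation p = 0.556), and -0.09 points with the unlabelled rate subtracted (p = 0.833). Its sign turned with HISAT2 ML (0.06) and without the first labelled SLAM library under DO (0.02). A converted read carried 3.05 and 2.68 mismatches on average in TL under IH and 3.03 and 2.86 in SLAM. Among converted reads under IH, 20.1% and 14.3% in TL had 5 or more mismatches, compared with 20.5% and 17.7% in SLAM. Under DO those shares were 4.92% and 2.41% in TL and 7.28% and 3.30% in SLAM, so the ranges overlapped.

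A mixture of 2 binomial components, new and old reads, was fitted to the mismatches and T positions of each labelled library, with the old rate taken from its unlabelled library. The old rate of all reads was 0.345% per T position in SLAM and 0.133% in TL under DO, and 0.0935% and 0.0739% under IH. Both labelled libraries of a group took their old rate from the same unlabelled library. An error in that library would move both estimates together, and the permutation p-values of the mixture do not measure it. The fit gave a larger new share in TL and a lower rate per T position in its new reads. The estimated new share was 51.8% and 50.4% in TL and 41.8% and 46.8% in SLAM under IH, and 26.2% and 19.5% against 18.2% and 10.7% under DO. Every TL library exceeded both SLAM libraries of its handling. The difference of 7.59 percentage points gave p = 0.0556, the smallest p these permutations can give. The rate in new reads was 7.07% and 5.85% in TL and 8.76% and 7.64% in SLAM under IH, and 5.64% and 4.84% against 8.71% and 6.85% under DO. It was lower in TL in all 8 pairs of libraries, by 0.57 to 3.87 points, and the mean difference of -2.14 points also gave the smallest possible p, 0.0556 (exact permutation). Both differences were smaller with other alignments. With STAR D the new share differed by 4.34 points and the rate by -1.23 (exact permutation p = 0.167 for each). With HISAT2 ML they differed by 4.97 points (p = 0.111) and -0.81 points (p = 0.167, exact permutation).

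Both estimates were smaller in exonic reads. There the new share was 27.4% and 27.0% in TL and 23.6% and 25.6% in SLAM under IH, and 16.03% and 11.1% against 15.4% and 10.3% under DO (difference 1.68 points, exact permutation p = 0.333). The exonic rate in new reads was 6.47% and 5.29% in TL and 7.84% and 6.62% in SLAM under IH, with both TL libraries below both SLAM libraries. Under DO the exonic rates overlapped, at 5.07% and 3.98% in TL and 6.03% and 4.47% in SLAM (difference over both handlings -1.04 points, exact permutation p = 0.167). Intronic reads gave new shares of 83.2% and 81.5% in TL and 69.9% and 77.8% in SLAM under IH, with no overlap under either handling. Off chromosome 21 and the ribosomal contigs the intronic new shares were 84.3% and 82.5% in TL and 73.04% and 80.6% in SLAM under IH, and they overlapped under DO (difference 9.40 points, exact permutation p = 0.222). Over all reads without chromosome 21 and the ribosomal contigs, the new share differed by 3.86 points (exact permutation p = 0.222) and the rate by -1.34 points (p = 0.167). Under DO both then overlapped, with new shares of 20.2% and 13.6% in TL and 18.3% and 11.6% in SLAM. The rates there were 5.42% and 4.18% in TL and 6.71% and 4.72% in SLAM. Under IH the groups stayed apart in both.

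Reads from TL libraries held more T positions. The mean was 37.9 and 38.3 T positions per read in the labelled TL libraries under IH and 32.6 and 32.7 in the SLAM libraries. It was 28.6 and 27.3 in TL and 24.5 and 28.9 in SLAM under DO. In the unlabelled libraries it was 39.1 in TL and 36.8 in SLAM under IH, and 28.4 against 25.5 under DO. Only the second SLAM library under DO lay above the TL libraries of its handling. Over the 12 libraries the difference was 2.97 T positions (exact permutation within handling and label, p = 0.0417; 0.104 after adjustment over the same 5 measures). Without chromosome 21 and the ribosomal contigs it was 1.96 (exact permutation p = 0.0278), and without the first labelled SLAM library under DO it was 2.42 (exact permutation p = 0.0694).

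The same was seen within genes. Over 965 genes that no library covered with fewer than 100 exonic reads, 98.7% had more T positions per read in TL than in SLAM among labelled libraries under IH, by a median of 2.92. Among labelled libraries under DO 76.5% of the genes were higher in TL, with a median difference of 0.649. In unlabelled RNA 88.0% were higher under IH (median 1.63) and 86.4% under DO (median 1.48). The median over genes was 1.72 higher in TL over the 12 libraries (exact permutation p = 0.0417). The converted share was also computed with every library given the same distribution of T positions. Standardised in this way, the converted share was 43.2% and 39.0% in TL and 39.7% and 41.9% in SLAM under IH, and 23.8% and 17.6% against 24.3% and 17.1% under DO. The groups then overlapped under both handlings, and the difference was 0.17 percentage points (exact permutation p = 0.889).

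Converted shares differed most in reads with 60 or more T positions. These were 68.1% and 67.5% converted in TL and 42.8% and 59.2% in SLAM under IH, and 42.8% and 29.7% against 34.8% and 25.4% under DO. In reads with 40 to 49 T positions the shares overlapped, at 50.7% and 47.4% in TL and 44.5% and 50.5% in SLAM under IH. The first SLAM library under IH stood apart here, since its converted share stayed at 44.5% and 42.8% in these 2 classes while it rose in the other 3 labelled IH libraries. Reads with 60 or more T positions were 9.12% and 9.39% of the TL libraries under IH and 4.45% and 4.23% of the SLAM libraries. The difference in this class was 11.5 percentage points (exact permutation p = 0.111).

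**Figure D2:**
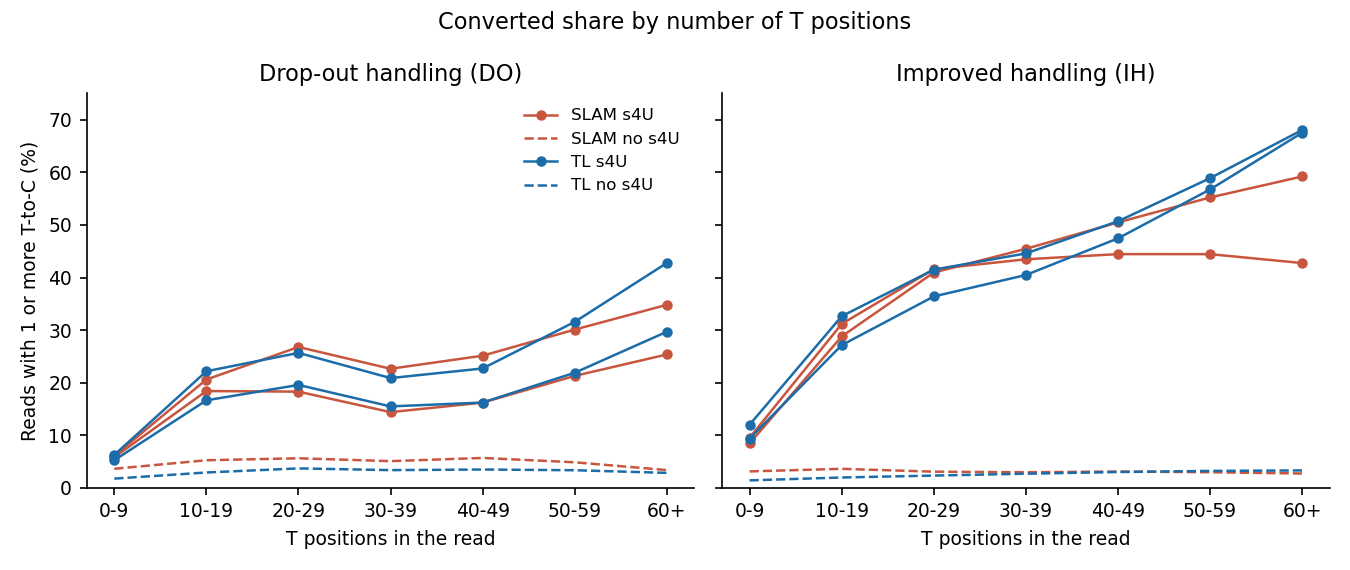
Percent of reads with a T-to-C mismatch (y axis) in classes of reads by number of T positions (x axis), with 1 line per library and dashed lines for unlabelled libraries. Up to 49 T positions the mean differences lie between -1.14 and 0.74 percentage points, and under IH the TL libraries reach 68.1% and 67.5% at 60 or more, above 42.8% and 59.2% in SLAM.

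Without s4U the converted share was higher in the iodoacetamide libraries under both handlings. The converted share was 5.17% in the unlabelled SLAM library under DO and 3.28% in TL. Under IH it was 3.07% in SLAM and 2.75% in TL. On chromosome 21 and the ribosomal contigs it was 7.59% in SLAM and 4.63% in TL under DO, and 6.96% against 3.85% under IH. A converted read on chromosome 21 or these contigs carried 2.09 mismatches on average in the unlabelled SLAM library under DO, compared with 1.29 in TL. Outside these contigs the shares were 3.37% and 2.68% under DO and 2.63% and 2.66% under IH, SLAM before TL. In exonic reads SLAM was higher under both handlings, at 3.28% against 2.72% under DO and 3.57% against 3.06% under IH. Mitochondrial reads had 4.80% in SLAM and 3.48% in TL under DO, and 5.15% against 3.62% under IH. Intronic reads had 5.40% in SLAM and 3.63% in TL under DO but 2.06% against 2.31% under IH, the reverse order. Each of these values is from 1 library, so the difference has no replicate check.

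Labelled reads of the same ribosomal contigs had converted shares of 40.2% and 34.7% in TL and 29.98% and 27.1% in SLAM under IH, with no overlap. Under DO they were 32.3% and 25.001% in TL and 25.8% and 27.5% in SLAM, which overlapped (difference over both handlings 5.48 points, exact permutation p = 0.167). The mixture put the new share there at 54.6% and 51.2% in TL and 33.3% and 28.5% in SLAM under IH. Under DO it was 49.4% and 36.2% in TL and 14.5% and 19.1% in SLAM. Each estimate rests on the background rate of 1 unlabelled library. That rate was 0.508% per T position in SLAM and 0.211% in TL under IH, and 0.909% and 0.315% under DO. The part of that background in the estimate was not tested. This class holds all reads of chromosome 21, and its ribosomal reads were not measured apart. T positions per read in it were 21.9 and 22.1 in TL and 18.1 and 18.0 in SLAM under IH. Whether the mix of reads within the class differed between chemistries was not tested.

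Mitochondrial RNA, made by its own polymerase from the mitochondrial genome, had higher converted shares in TL under IH. Its reads were converted at 32.2% and 29.4% in TL and 23.5% and 25.1% in SLAM, with no overlap. Under DO the values were 29.2% and 19.9% in TL and 26.4% and 23.1% in SLAM, with both SLAM libraries inside the TL range. The difference over both handlings was 3.11 percentage points (exact permutation p = 0.333). Gene by gene, 12 of 14 genes of the mitochondrial contig had the higher odds of conversion in TL under IH and 5 of 14 under DO, while 899 and 890 of all 2102 genes did. None of the 14 passed the test described next (edgeR quasi-likelihood, lowest adjusted p = 0.999). T positions per mitochondrial read were also higher in TL under IH, at 37.3 and 37.9 against 32.6 and 33.5.

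The converted share of single genes was tested in 2102 genes, those that no labelled library covered with fewer than 50 exonic reads. The median gene had 21.1% and 19.4% of its reads converted in TL under IH and 21.3% and 20.99% in SLAM, and 11.6% and 8.45% against 12.4% and 9.04% under DO. In the unlabelled libraries the median gene had 2.40% to 3.37% converted reads. Across genes, the log odds of conversion correlated at 0.812 to 0.880 between a TL and a SLAM library under IH. Replicates of 1 chemistry correlated at 0.879 in TL and 0.826 in SLAM, over the same 2102 genes, which share libraries and depth and are not independent replicates. Under DO the correlations were 0.772 to 0.851 between chemistries, 0.805 between TL replicates and 0.813 between SLAM replicates.

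No gene's converted share passed an adjusted p of 0.05 between chemistries (0 of 2102, 0% called, edgeR quasi-likelihood test with Benjamini-Hochberg adjustment). There were 77 genes at an unadjusted p under 0.05, and DESeq2 called 0 with 54 at that level. The test relative to each library's overall conversion also called 0 of 2102 (0%), with 146 genes at an unadjusted p under 0.05 and 0 calls and 67 genes with DESeq2. The interaction of chemistry with handling called 0 of 2102 (0%), with 28 genes at that level by edgeR and 0 calls and 19 genes by DESeq2. The median log2 odds ratio was -0.07, TL minus SLAM, and the middle 90% of genes lay between -0.61 and 0.46. In the relative test, the 95% interval of 1582 genes (75.3%) lay wholly within a 2-fold change of odds. The share was 61.6% in the plain test, and 35.7% under DO alone and 44.5% under IH alone in the relative test. On simulated counts with a 2-fold change of odds in 200 of the 2102 genes, the relative test recovered 84.5% and the plain test 63.5%, with 3 and 0 false calls. A gene changed alone or among few faces a stricter threshold after adjustment, and its recovery was not simulated.

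The lowest adjusted p in the relative test was 0.0999, shared by a gene on chromosome 17 and a gene on chromosome 6, singled out after their values were seen. The files do not pair the gene identifiers with symbols. The chromosome 17 gene had 11.5% and 11.5% of reads converted in TL under IH and 17.5% and 17.1% in SLAM, and 5.61% and 3.54% against 9.02% and 6.61% under DO. The chromosome 6 gene had 8.46% and 5.01% in TL and 14.8% and 14.4% in SLAM under IH, and 4.65% and 3.63% against 7.17% and 5.11% under DO. Neither gene passed the threshold, and since both were picked for a low p, their separation adds no evidence. Without s4U, 1 library each, the chromosome 17 gene had 3.81% in TL and 5.89% in SLAM under DO, and 2.84% against 3.06% under IH. The chromosome 6 gene had 2.30% in TL and 2.95% in SLAM under DO, and 2.72% against 2.13% under IH. A few genes did pass in the relative test under other settings, all lower in TL. They included 3 of 378 with at least 200 reads per library, 2 of 2619 with the STAR alignment, 2 of 2102 with the replicate number as a block, and 1 of 2102 without either the first SLAM or the first TL library under DO. Under DO alone 1 of 2102 genes passed it, lower in TL (0.0476% called), and under IH alone 0 did, with 99 at an unadjusted p under 0.05 by edgeR.

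Fast and slow genes were then compared, with turnover ranked in the osmium tetroxide and ammonia libraries under IH, so that neither chemistry ranked its own genes. In the slowest 10% of 965 genes, the median converted share was 7.14% and 7.25% in TL and 8.44% and 8.38% in SLAM under IH. In the fastest 10% it was 46.0% and 41.3% in TL and 44.1% and 45.3% in SLAM. Thus the slow genes did not overlap under IH and the fast genes did. Under DO the slowest 10% had 5.26% and 4.69% in TL and 6.61% and 5.17% in SLAM, which overlapped. The unlabelled libraries differed in the slowest 10% in the same direction, at 2.65% in TL and 4.04% in SLAM under IH and 2.97% against 3.91% under DO. The difference in labelled libraries was -1.06 percentage points in the slowest 10% (exact permutation p = 0.111) and -0.94 in the fastest (p = 0.722).

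**Figure D3:**
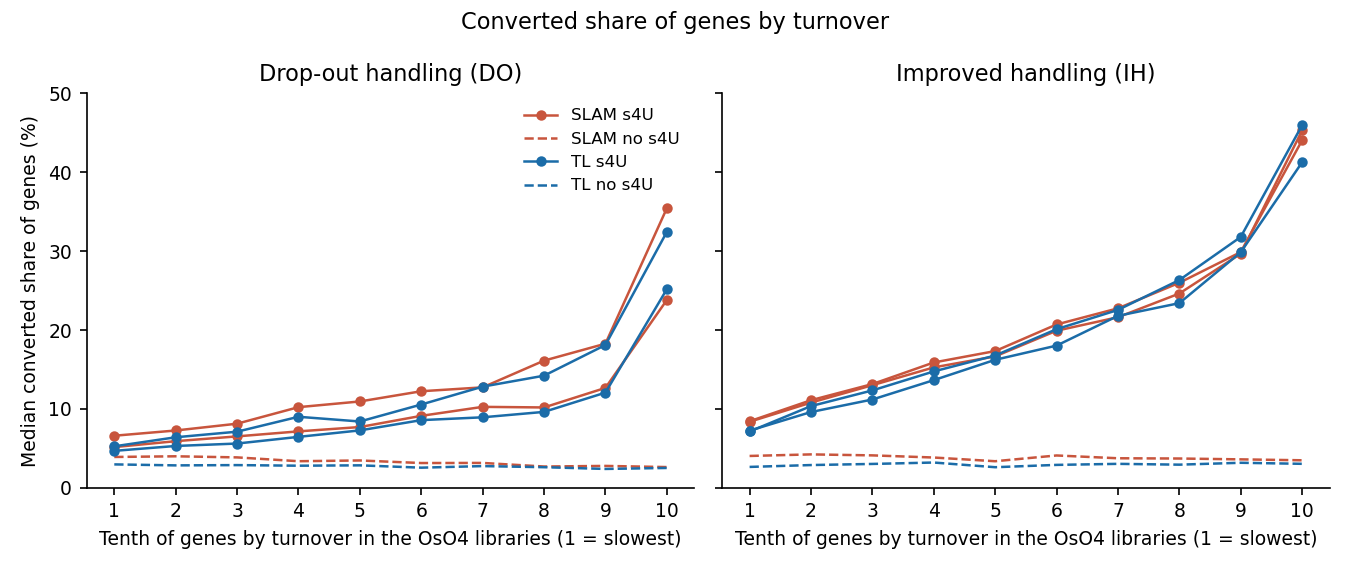
Median converted share of genes (y axis) in 10 equal classes of 965 genes ordered by turnover in the OsO4 libraries (x axis), with 1 line per library and dashed lines for unlabelled libraries. The TL and SLAM lines overlap in the fastest 10% under IH (41.3% to 46.0%), and the unlabelled SLAM lines start above the unlabelled TL lines.

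Loss of fast-turnover RNA from labelled libraries was measured as the median log2 ratio of each labelled library to its unlabelled library, fastest 10% minus slowest 10%. The gap was -0.28 and -0.29 in TL and -0.41 and -0.22 in SLAM under IH. Under DO it was 0.03 and -0.43 in TL and -0.06 and -0.50 in SLAM. The values overlapped under both handlings, and under DO replicates of 1 chemistry lay much farther apart than the chemistries did. The difference was 0.06, TL minus SLAM (exact permutation p = 0.5), and it turned to -0.06 or -0.05 without the first TL or the second SLAM library under DO. Both labelled libraries of a group were set against the same unlabelled library, whose own error this p-value does not measure.

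Exonic read counts, taken over aligned reads with or without mismatches, were lower in TL for a small group of genes. Of 12208 genes tested, 12 passed an adjusted p of 0.05 in labelled RNA, and all 12 were lower in TL (0.0983% called; edgeR quasi-likelihood test). On simulated counts with a 2-fold change in 200 of the 12208 genes, this test recovered 58% and made 8 false calls. Recovery with few changed genes, where the threshold after adjustment is stricter, was not simulated. In bulk RNA a read count gives the share of the library's reads and not the amount per cell. The 2 called genes with the largest falls among those averaging at least 100 reads were ENSG00000200795 and ENSG00000202538, both on chromosome 12. ENSG00000202538 had 888 and 1105 CPM (exonic gene reads scaled to a common library total) in SLAM under DO and 124 and 249 in TL. Under IH it had 64.9 and 98.3 CPM in SLAM and 15.96 and 11.3 in TL. Its fall was -2.49 ± 0.22 on the log2 scale (SE; edgeR adjusted p = 2.26e-06).

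ENSG00000200795 had 486 and 608 CPM in SLAM and 80.02 and 134 in TL under DO, and 34.2 and 50.9 against 7.39 and 5.96 under IH. Neither gene's TL libraries overlapped the SLAM libraries of their handling, which adds no evidence since both genes were called from these libraries. Both were also lower without s4U: ENSG00000202538 had 980 CPM in SLAM and 165 in TL under DO, and 66.4 against 8.62 under IH. Its fall in unlabelled RNA was -2.75 ± 0.31 on the log2 scale (edgeR adjusted p = 0.000112). Each unlabelled group was 1 library, so the SE and p of this test take their spread from the labelled replicates. These were the only 2 of the 12 that stayed past the threshold in all 8 fits that leave out 1 labelled library.

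The other 3 called genes with at least 100 reads lay on chromosomes 6, 1 and 9. The chromosome 6 gene had 354 and 554 CPM in SLAM and 39.5 and 65.3 in TL under DO, but only 0.78 to 6.59 under IH, where the groups overlapped. The chromosome 9 gene had 1153 and 1632 CPM in SLAM and 514 and 809 in TL under DO, and 206 and 211 against 101.2 and 103 under IH. The chromosome 1 gene had 103 and 202 CPM in SLAM and 79.0 and 52.3 in TL under DO, and 102 and 107 against 43.2 and 51.6 under IH. Of the remaining 7 genes, 1 lay on the mitochondrial contig, with 139 and 127 CPM in SLAM and 4.05 and 5.45 in TL under DO and at most 3 CPM under IH.

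**Figure D4:**
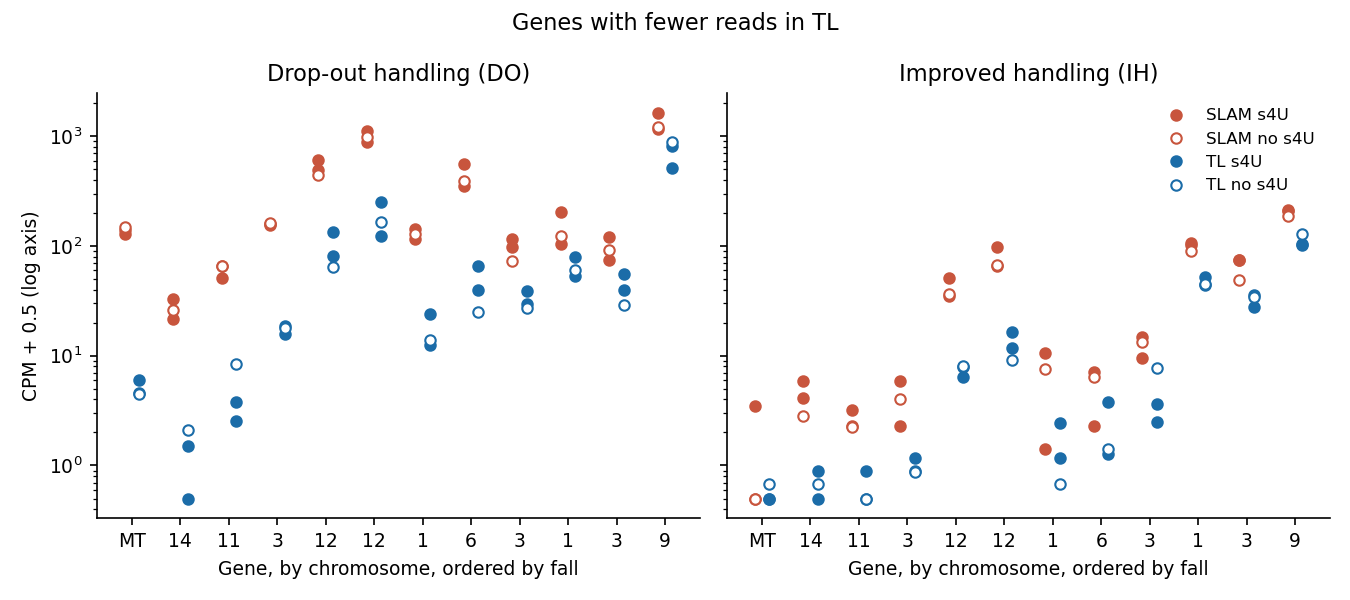
CPM plus 0.5 (log axis) of the 12 genes with fewer reads in TL, each named by its chromosome and ordered from the largest fall, under DO and IH. Filled points are the 2 labelled libraries and open points the unlabelled library. The labelled TL points lie below the labelled SLAM points in both panels for 9 of the 12 genes, as they do for 343 of all 12208 genes (2.81%). The 12 genes were called from these same labelled libraries, so their separation adds no evidence.

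The same comparison was made in RNA that never held s4U. In the unlabelled libraries 4 of 12208 genes passed the same test, all lower in TL (0.0328% called), and all 4 were among the 12. The other 8 did not pass it. Of the 12, 11 had fewer CPM in TL under both handlings without s4U, as did 2750 of all 12208 genes (22.5%), each from 1 library a group. The test of whether the chemistry difference itself differed with labelling called 0 of 12208 genes (0%, 412 at an unadjusted p under 0.05 by edgeR, and 0 calls and 150 genes by DESeq2). The test of whether it differed with handling also called 0 of 12208 (0%, 439 genes by edgeR, and 0 calls and 131 genes by DESeq2). Reads of the called genes held few T positions, with a median of 21.04 per read over the 12 libraries (range 14.5 to 33.3). The median over 12040 genes was 36.2, and 11 of the 12 called genes lay under the lower quartile of 31.6.

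The part of T positions in the falls was not tested. The 30 genes with under 20 T positions and at least 50 reads on average had a median log2 change of -0.15 under DO and 0.16 under IH in labelled RNA. In the classes with more T positions the medians lay between -0.008 and 0.032 under DO and between 0.045 and 0.086 under IH. In unlabelled RNA the 30 genes had medians of 0.23 and 0.46. Of the 12 called genes, 10 had more CPM in both SLAM libraries under DO than in either under IH, as had 4386 of all 12208 genes (35.9%). The number of calls depended on single libraries. Without the second SLAM library under DO 49 genes passed, 27 of them higher in TL and 22 lower. With all libraries kept, calls higher in TL numbered 2 of 19 without a filter on low counts and 1 of 26 with labelled libraries alone and handling as an additive block. The number was 32 without the first SLAM library under DO, of which 31 were lower in TL, 6 without the first and 2 without the second SLAM library under IH, and 2 without either TL library under IH. The unlabelled count rose to 28 without the first labelled SLAM library under DO, 19 of them higher in TL, and to 20 without the second, 11 of them higher. It was 10 without a filter on low counts, 3 of them higher. Without the first of these libraries 10 genes passed the handling interaction, 9 of them with a higher TL-to-SLAM ratio under IH and 1 under DO.

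The authors' deposited table gives degradation rate constants per chemistry and handling, with replicates combined and no time unit. A higher constant means faster decay. It listed 2209 transcripts for TimeLapse and 1600 for SLAM, and 1552 were in both, which is 70.3% of the TimeLapse list and 97.0% of the SLAM list. In the authors' deposited table the rate constants were mostly higher with TimeLapse. The median log2 ratio of TimeLapse to SLAM was 0.19 under DO and 0.21 under IH, and 69.0% and 73.4% of transcripts had a ratio over 1. Rate constants on the log scale correlated between chemistries at 0.926 under DO and 0.940 under IH across these transcripts, which share their libraries and are not independent.

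Transcripts past a 2-fold ratio in the authors' deposited table were few and mostly slow ones. Under DO, 108 of 1552 were more than 2-fold higher with TimeLapse (6.96%) and 31 more than 2-fold lower (2.00%). Under IH, 40 were higher (2.58%) and 10 lower (0.644%). With transcripts ordered by rate constant, 21.8% of the slowest 10% and 2.56% of the fastest were past 2-fold under DO, and 7.05% and 0.641% under IH. The ratios of single transcripts hardly carried over between handlings, with a correlation of 0.0554. With no error given for the ratio, these counts are a description without a test.

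Of 1552 transcripts, only 4 were past 2-fold under both handlings, all higher with TimeLapse. They were FKBP1A, which encodes a prolyl isomerase that binds FK506; RPL27A, a large-subunit ribosomal protein; HADHA, an enzyme of mitochondrial fatty acid oxidation; and NDUFB10, a subunit of respiratory complex I. In the authors' deposited table FKBP1A had rate constants of 0.0143 with TimeLapse and 0.0049 with SLAM under DO, and 0.0574 against 0.0256 under IH. RPL27A had 0.0148 against 0.0069 under DO and 0.0493 against 0.0219 under IH. HADHA was 2.84-fold higher with TimeLapse under DO and 2.08-fold under IH, and NDUFB10 was 2.30-fold and 2.04-fold higher. All 4 lay below the median constant of both chemistries under IH, which was 0.0957 with TimeLapse and 0.0829 with SLAM. Transcripts past 2-fold higher numbered 108 under DO and 40 under IH. Whether 4 in both exceeds the overlap expected by chance was not tested.

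**Figure D5:**
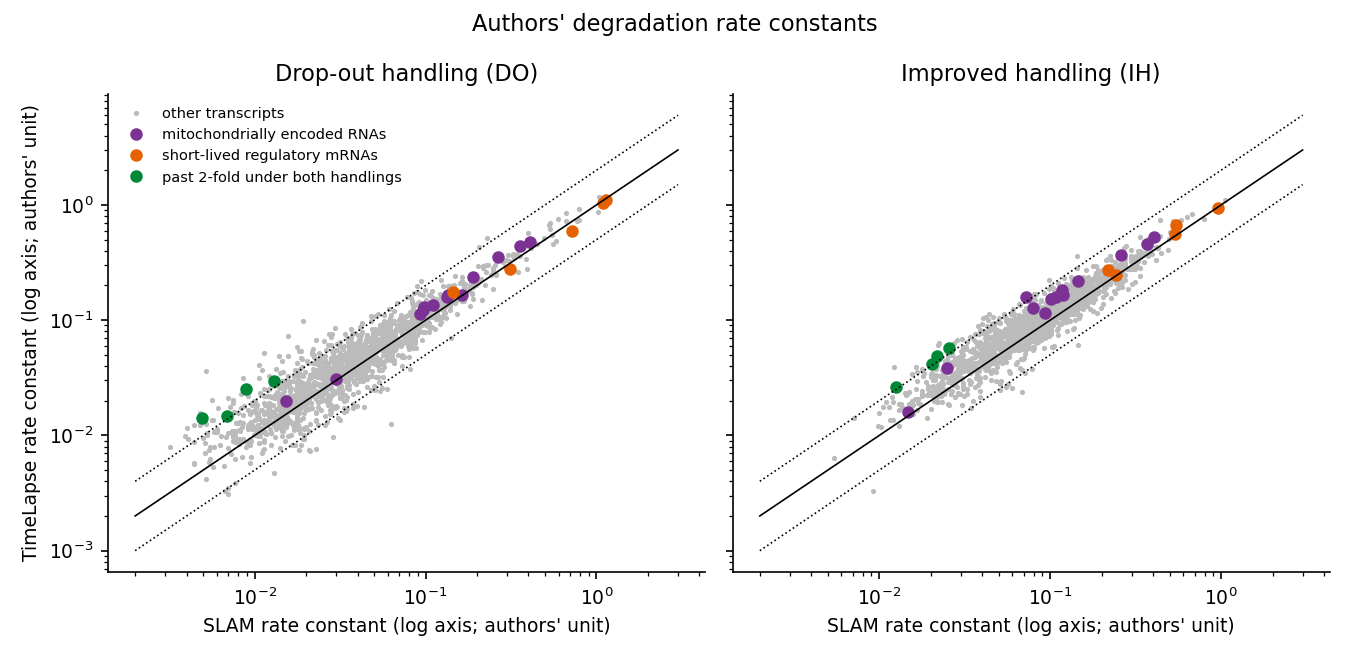
Degradation rate constants from the authors' deposited table, SLAM on the x axis and TimeLapse on the y axis (log axes, unit not stated), for 1552 transcripts under DO and IH. The solid line marks equal constants and the dotted lines a 2-fold ratio, and 12 of the 13 mitochondrial RNAs lie above the solid line under DO and all 13 under IH, as do 69.0% and 73.4% of all transcripts. Their median log2 ratios are 0.30 and 0.55, against 0.19 and 0.21 over all transcripts.

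Mitochondrially encoded RNAs had higher rate constants with TimeLapse nearly throughout. Of 15 listed RNAs, 13 were in the authors' deposited table for both chemistries, and 12 had a ratio over 1 under DO and 13 under IH, beside 69.0% and 73.4% of all 1552 transcripts. Their median log2 ratio was 0.30 under DO and 0.55 under IH, where all transcripts stood at 0.19 and 0.21, and 1 of 13 was past 2-fold higher under IH, beside 2.58% of all transcripts. MT-ATP8, which encodes a small ATP synthase subunit, had 0.159 with TimeLapse and 0.0722 with SLAM under IH, and 0.130 against 0.0974 under DO. MT-ND1, a complex I subunit, had 0.523 against 0.404 under IH and 0.477 against 0.407 under DO. MT-RNR2, the large mitochondrial ribosomal RNA, was slow with both chemistries, at 0.0160 and 0.0147 under IH. The 13 RNAs are cut from shared precursors and are not independent.

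Short-lived regulatory mRNAs encode proteins whose levels change quickly, such as transcription factors. In the authors' deposited table, 5 of 40 listed were present for both, with median log2 ratios of -0.06 under DO and 0.07 under IH, where all transcripts had 0.19 and 0.21. None of the 5 was past 2-fold in either direction, beside 6.96% higher and 2.00% lower of all transcripts under DO and 2.58% and 0.644% under IH. MYC, which encodes a transcription factor of cell growth, had 0.937 with TimeLapse and 0.953 with SLAM under IH, ranked 2 with each chemistry among the 1552 shared transcripts. It had 1.10 and 1.13 under DO. Ratios of the 5 ran from 0.816-fold (SOX4) to 1.21-fold (SOX12) under DO and from 0.983-fold (MYC) to 1.24-fold (JUND, another AP-1 subunit) under IH. JUN, a subunit of the AP-1 transcription factor, had 0.668 against 0.547 under IH and 1.04 against 1.09 under DO. SOX4, a developmental transcription factor, had 0.561 against 0.534 under IH and 0.590 against 0.723 under DO.

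Ribosomal protein and glycolytic mRNAs are long-lived housekeeping transcripts. Of 79 cytoplasmic ribosomal protein mRNAs, 69 were shared in the authors' deposited table, with median log2 ratios of 0.14 under DO and 0.26 under IH. Under DO 6 were past 2-fold higher and 3 lower, beside 6.96% and 2.00% of all transcripts. Under IH 2 were higher and 0 lower, beside 2.58% and 0.644%. Glycolytic mRNAs numbered 9 of 16, with medians of 0.16 and 0.45. Past 2-fold, 2 of these 9 were higher and 0 lower under DO, and 0 higher and 1 lower under IH, beside the same shares of all transcripts. PGK1, phosphoglycerate kinase, had 0.0080 with TimeLapse and 0.0032 with SLAM under DO and 0.0243 with both under IH. GPI, glucose-6-phosphate isomerase, had 0.0250 with TimeLapse and 0.0506 with SLAM under IH and 0.0053 against 0.0057 under DO. LDHA, lactate dehydrogenase A, had 0.0166 against 0.0111 under DO and 0.0404 against 0.0266 under IH.

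Noncoding RNAs and histone mRNAs are read against the medians of all transcripts, 0.19 under DO and 0.21 under IH. In the authors' deposited table, 7 of 19 hosts of small nucleolar RNAs were shared, with medians of 0.31 under DO and 0.51 under IH. GAS5, a host whose spliced RNA is decayed by nonsense-mediated decay, was 4.64-fold higher with TimeLapse under DO, and had 0.1299 against 0.1080 under IH. TAF1D, which also encodes a factor of RNA polymerase I, was 2.78-fold and 1.52-fold higher. GAS5 and TAF1D were the 2 of 7 hosts past 2-fold higher under DO, beside 6.96% of all transcripts. Under IH 0 hosts were, beside 2.58%. SNHG3, another host, was lower with TimeLapse under DO at 0.782-fold, and 1.42-fold higher under IH. MALAT1, a nuclear long noncoding RNA, was 1.15-fold and 1.24-fold higher, and NORAD, a long noncoding RNA that binds Pumilio proteins, 1.48-fold and 1.32-fold. Of 19 RNA polymerase III RNAs, 5 were shared, with medians of 0.08 under DO and 0.67 under IH. RN7SL1, the RNA of the signal recognition particle, had 0.0142 against 0.0071 under IH and 0.0242 against 0.0231 under DO. It was the 1 of 5 past 2-fold higher under IH, beside 2.58% of all transcripts. RMRP, another of the 5, was lower with TimeLapse under DO at 0.708-fold, and 1.15-fold higher under IH. The 17 shared histone mRNAs of 49 had medians of 0.07 and 0.27, 13 had a ratio over 1 under each handling (69.0% and 73.4% of all transcripts did), and 1 of them, H3C10, was past 2-fold higher under IH at 2.28-fold, beside 2.58% of all transcripts.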

How the data were processed

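Per the labels' protocols, RNA was extracted with Trizol, treated with DNase, cleaned on beads, converted and made into stranded total-RNA libraries. The authors deposited counts of reads for each combination of library, alignment, contig, gene, intronic flag, T-to-C mismatches and T positions, the last 2 as whole numbers. The submitters' processing notes name HISAT, HISAT2, STAR, HTSeq and GRCh38, and the settings codes are not given in the sources used here. The authors' deposited rate constants from bakR have no stated unit. The authors deposited log2 fold changes and adjusted p-values between handlings in the same table, and the p-values were used here in an alternative.

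Samples were grouped from titles, and chemistries compared within handling. HISAT-3N D was the main alignment. Library measures were tested by two-sided exact permutation. Gene tests used edgeR 4.0.16 (TMM, quasi-likelihood, filterByExpr for counts, adjusted by Benjamini-Hochberg), with DESeq2 1.42.0 and limma 3.58.1 as alternatives, and were tested on simulated data. The members, lists and tests were chosen with earlier results of these data known. Named genes were those with the largest changes among adjusted p under 0.05, the same sign under both handlings and at least 100 reads on average, at most 2 identifiers in a direction. For rate constants they were those past 2-fold under both handlings, plus list members. Of the 2568 transcript names, 2540 matched a RefSeq symbol or synonym. Replicate libraries of every labelled group were distinct (chi-square divided by degrees of freedom, 2.13 to 8.68). Where 1 library was left out, the lone sample was assumed to vary like the others. Other alignment settings, filters, size factors and read classes were tried as alternatives.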

Additional observations from a re-analysis of the deposited data

How the results depend on the processing

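With 1 sample per unlabelled group and 2 per labelled group, no library measure over the 8 labelled libraries could pass 0.05, so its p-value says nothing about stability. The converted share changed sign in exonic reads (-0.0495 percentage points). With HISAT2 ML the T-to-C rate difference was 0.0597 and the difference in mismatches per converted read 0.0554, both reversed. Without the first labelled SLAM library under DO these were 0.0178 and 0.0111. Leaving out each labelled library gave -0.4343 to 0.0178 for the rate, 1.0352 to 4.0524 for the converted share, -0.1962 to 0.0111 for mismatches per converted read, -2.6042 to -1.6754 for the rate in new reads and 5.7292 to 9.4583 for the new share. It gave -1.8586 to -1.5643 for the intronic share, 2.4157 to 3.5233 for T positions and -0.0565 to 0.1721 for the turnover gap, which was -0.0536 without the second SLAM library under DO. The intronic share of reads differed by -1.71 points, TL minus SLAM (-3.12 under DO and -0.30 under IH, exact permutation p = 0.139). In labelled libraries alone it differed by -0.82 (exact permutation p = 0.556), an average over opposite directions. There both TL libraries under IH (38.6% and 37.4%) lay above both SLAM libraries (36.4% and 36.1%). Under DO both TL libraries (21.8% and 22.8%) lay below both SLAM libraries (25.2% and 26.1%). T positions differed by 3.3575 in labelled libraries alone (exact permutation p = 0.167). Genes called in the relative conversion test numbered 3 at 200 reads and 2 with STAR D, and 0 to 1 when leaving out a library; the interaction with handling also called 0 to 1, the 1 without the first SLAM or the second TL library under DO. Count calls in labelled RNA numbered 19 (2 higher in TL) without a filter, 18 with intronic reads, 26 (1 higher in TL) with labelled libraries alone and handling as an additive block, 2 choices changed together, and 2 to 49 when leaving out a library. Unlabelled calls numbered 10 (3 higher in TL) without a filter, 9 with intronic reads and 4 to 28 when leaving out a library, those of the label interaction 0 to 1, and those of the handling interaction 2 without a filter and 0 to 10. The median log2 ratio of rate constants was 0.2328 (DO) and 0.2372 (IH) without transcripts that differ between handlings, and the mean under DO was 0.212. The causes were not tested.

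Replicate numbers were not taken as pairs. Same-numbered deviations correlated across genes at -0.03 to 0.21 between groups, and only gene counts of TL and SLAM under DO, at 0.21, exceeded 0.1. A correlation across genes cannot show a shift shared by whole libraries. Under DO the first library had the higher converted share in both chemistries (22.8% and 16.8% in TL, 22.0% and 16.7% in SLAM). Under IH the first library was higher in TL (47.7% and 44.3%) and lower in SLAM (39.96% and 42.8%). Whether replicate numbers mark shared batches was not tested. With a replicate block, 2 genes passed the relative conversion test and 14 the labelled count test, and T positions differed by 3.3575 (exact sign flips, p = 0.25, smallest possible 0.125). With same-numbered libraries paired, the converted share differed by 2.54 points and the T-to-C rate by -0.21 (exact sign flips, p = 0.125 and 0.5). The block changed no other call.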
